A study of Ganoderma lucidum with 6 samples.

Results

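The genes described here form the uridine, thiamine and allantoin permease family of Ganoderma lucidum, a wood-decaying basidiomycete. They were taken as every gene whose KOG description, a name for a cluster of orthologous eukaryotic proteins, reads uridine permease, thiamine transporter or allantoin transport. This gave 5 genes of the 16113 in the deposited table, GL20717-G, GL26007-G, GL23092-G, GL24276-G and GL17526-G. The family was picked with the nitrate and ammonium values of its members known, so those values are given as a description and no p-value is attached to a member. RNA sequencing was done on mycelia of the wild type sampled at day 3, in 3 libraries from cultures with (NH4)2SO4 and 3 from cultures with NaNO3. The salts differ in sulfate and sodium as well as in the form of nitrogen, and these cannot be told apart. The labels name no strain, no carbon source and no silenced line among these libraries, and they do not say that replicates were separate cultures, so the spread between libraries may be technical. In such bulk mycelium, fewer cells that express a gene and less RNA per cell cannot be told apart.

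Permeases of this kind belong to the nucleobase:cation symporters, membrane proteins that bring small nitrogen-rich rings into the cell together with a cation. In Saccharomyces cerevisiae the family holds separate carriers for uracil, uridine, allantoin and thiamine, so the shared description does not fix the cargo of a single gene. Allantoin is an intermediate of purine breakdown that many fungi can use as a nitrogen source, through the enzymes allantoinase and allantoicase. In yeasts and filamentous fungi, carriers and enzymes for such secondary nitrogen sources are generally kept low while ammonium is plentiful. No genome or protein sequence was used here, so the members are described by annotation, position and transcript level.

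All 5 members carry GO identifiers for nucleobase transmembrane transporter activity, the plasma membrane and an integral membrane protein, and only 6 genes in the table carry the first of these. The remaining identifiers split the family. GL20717-G and GL23092-G have the same set of identifiers, and they are the only 2 genes in the table annotated as uracil:cation symporters and with uracil import across the plasma membrane. GL24276-G and GL26007-G also share 1 set with each other. It holds amine transport, carried by 3 genes in the whole table, and nucleobase transport, which GL17526-G carries too. GL17526-G is annotated with uridine transport, and 3 genes in the table, GL17526-G, GL20717-G and GL23092-G, carry uridine transmembrane transporter activity. None of the members has a KEGG entry, and no identifier for thiamine or allantoin transport was among theirs.

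The members lie on 5 different scaffolds. GL20717-G lies on scaffold 11 at 708256 to 710613 on the minus strand, GL23092-G on scaffold 23 at 43572 to 45630 on the plus strand, and GL24276-G on scaffold 34 at 197016 to 199144 on the minus strand. GL26007-G lies on scaffold 8 at 648800 to 650895 and GL17526-G on scaffold 49 at 48556 to 49914, both on the plus strand. The coordinates are those of the deposited table, whose genome build is not given in the sources used here. The gene model of GL17526-G spans 1359 bases, against 2059 to 2358 bases for the other four. Its last base is also the last base of the sorbitol dehydrogenase gene GL25138-G on the opposite strand, so reads at that end could belong to either. Whether reads matching more than 1 member were shared among them is not given in the sources used here.

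Total gene counts ranged from 19979528 to 27604895 per library. Pearson correlations of log2(CPM + 1) over the 11993 tested genes were 0.975 to 0.993 between libraries of a group and 0.936 to 0.968 across groups. The lowest count of any member in any library was 29, above the 3 counts that a count of 0 allows. All 5 members passed the filter on low counts. Over the whole table, 15.6% of tested genes were called at an adjusted p under 0.05 by edgeR's quasi-likelihood test, with 7.5% higher and 8.13% lower in nitrate. Levels below are FPKM, fragments scaled for transcript length and depth, as the authors deposited them. Fold changes are edgeR's log2 ratio of nitrate to ammonium, each given with a standard error (SE), and group values are mean ± SD with n = 3 libraries per group.

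On nitrate, transcripts of 4 of the 5 permease genes stood above every ammonium library. GL20717-G went from near the bottom of the expressed range to the most abundant member. GL26007-G and GL24276-G, the pair with the amine transport annotation, were 2.78 and 2.69 times as high by mean FPKM, and GL23092-G 1.69 times. GL17526-G, the least abundant member on nitrate, overlapped between the groups. By edgeR, 4 of 5 members were called higher and 0 lower, where 7.5% of all tested genes were called higher and 8.13% lower. With a fold change of at least 2 as well, 3 members were called, against 4.44% of tested genes. The FPKM of the groups did not overlap for 4 of 5 members, where 19.1% of tested genes were higher without overlap and 37% did not overlap in either direction. Since the family was picked from this same contrast, nothing further is read from those counts, nor from the calls of single members below.

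**Figure D1:**
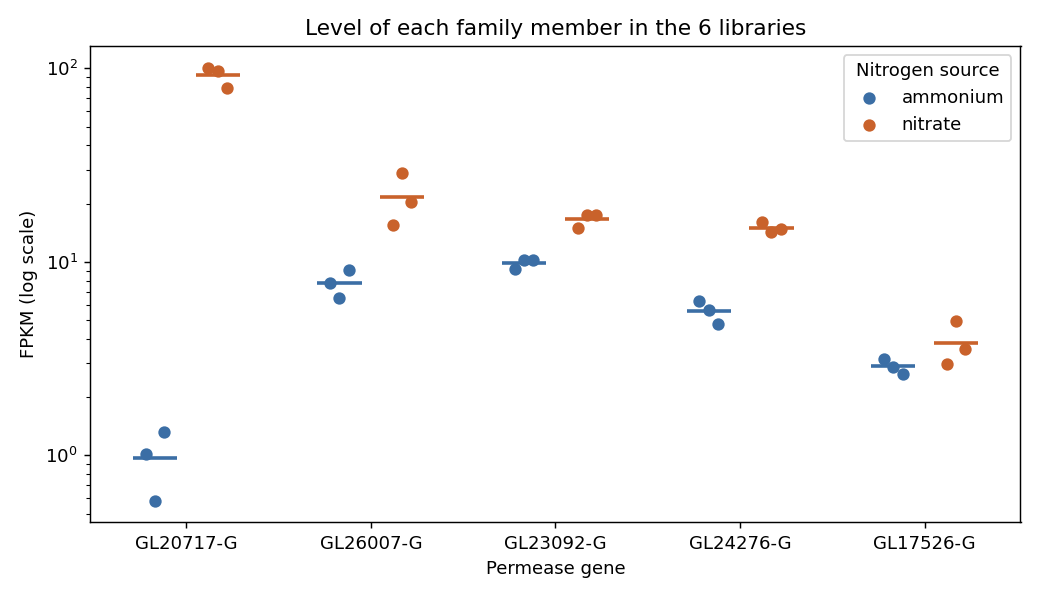
FPKM of each permease gene on a log scale. Points are the 6 libraries, 3 per nitrogen source, and short lines are group means. GL20717-G goes from 0.584 to 1.33 FPKM on ammonium to 79.6 to 101 FPKM on nitrate, while the groups overlap in GL17526-G alone.

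GL20717-G, annotated as a uracil:cation symporter, had 1.01, 0.584 and 1.33 FPKM in ammonium replicates 1 to 3, from 46, 29 and 68 counts. In nitrate replicates 1 to 3 it had 101, 96.9 and 79.6 FPKM, from 4534, 4478 and 2979 counts. The lowest nitrate library was far above the highest ammonium library. The means were 0.973 ± 0.373 and 92.5 ± 11.4 FPKM, a ratio of 94.99, with a log2 fold change of 6.56 ± 0.33 (SE). That was the highest fold change of the 11993 tested genes. Its level lay above 7.25% of tested genes on ammonium and above 87.5% on nitrate. With 13 alternative settings the fold change ranged from 5.58 to 6.85, and its place was between first and 6th. It was called in each of the 6 fits that left out a library.

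GL23092-G carries the same annotation as GL20717-G, and its values differed far less between the salts. It had 9.19, 10.3 and 10.2 FPKM on ammonium and 15.0, 17.5 and 17.4 FPKM on nitrate. The groups did not overlap, and the spread within each was small. The means were 9.88 ± 0.599 and 16.7 ± 1.42 FPKM, with a log2 fold change of 0.74 ± 0.15. This was the member whose call depended most on single libraries. It was called without ammonium replicate 1 or nitrate replicate 1 and not without ammonium replicate 2 or 3 or nitrate replicate 2 or 3, although its fold change stayed between 0.65 and 0.79.

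GL24276-G, of the pair annotated with amine transport, had 6.31, 5.65 and 4.79 FPKM on ammonium. On nitrate it had 16.0, 14.2 and 14.8 FPKM. Every nitrate library was more than double any ammonium library. The means were 5.58 ± 0.765 and 15.0 ± 0.924 FPKM and the log2 fold change was 1.42 ± 0.18.

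GL26007-G, the other gene of that pair, had 7.79, 6.49 and 9.05 FPKM on ammonium. It had 15.6, 28.8 and 20.5 FPKM on nitrate, with nitrate replicate 2 highest. The groups did not overlap. The means were 7.78 ± 1.28 and 21.6 ± 6.67 FPKM and the log2 fold change was 1.45 ± 0.23, or 1.20 without nitrate replicate 2. GL24276-G and GL26007-G were each called in all 6 fits that left out a library.

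GL17526-G, annotated with uridine transport, had 3.16, 2.85 and 2.64 FPKM on ammonium and 2.97, 4.93 and 3.53 FPKM on nitrate. Nitrate replicate 2 was again the highest library, and nitrate replicate 1 lay within the ammonium range. The means were 2.88 ± 0.26 and 3.81 ± 1.01 FPKM. The log2 fold change of 0.39 ± 0.23 did not pass the threshold, and it was 0.16 without nitrate replicate 2. A difference of that size is within the spread of these libraries, which does not show that the level was equal.

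The order of the members changed between the salts. On ammonium GL23092-G was highest, followed by GL26007-G, GL24276-G, GL17526-G and GL20717-G, and the ranges of neighbours in that order did not overlap. On nitrate GL20717-G stood first at 79.6 FPKM or more, with the next gene, GL26007-G, at 28.8 FPKM or less. GL26007-G, GL23092-G and GL24276-G followed with overlapping ranges, so their order is not resolved, and GL17526-G was below them with no overlap.

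The summed level of the 5 genes was 27.5, 25.8 and 28.01 FPKM in the ammonium libraries and 151, 162 and 136 FPKM in the nitrate libraries. GL20717-G made up 3.56 ± 1.24% of that sum on ammonium and 61.8 ± 4.61% on nitrate. GL23092-G went from 36.5 ± 3.12% to 11.2 ± 1.48%, although its own level was higher on nitrate. The other four genes together came to 26.1 ± 0.77 FPKM on ammonium and 57.1 ± 7.95 FPKM on nitrate, a ratio of 2.19 against 5.52 for all 5.

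**Figure D2:**
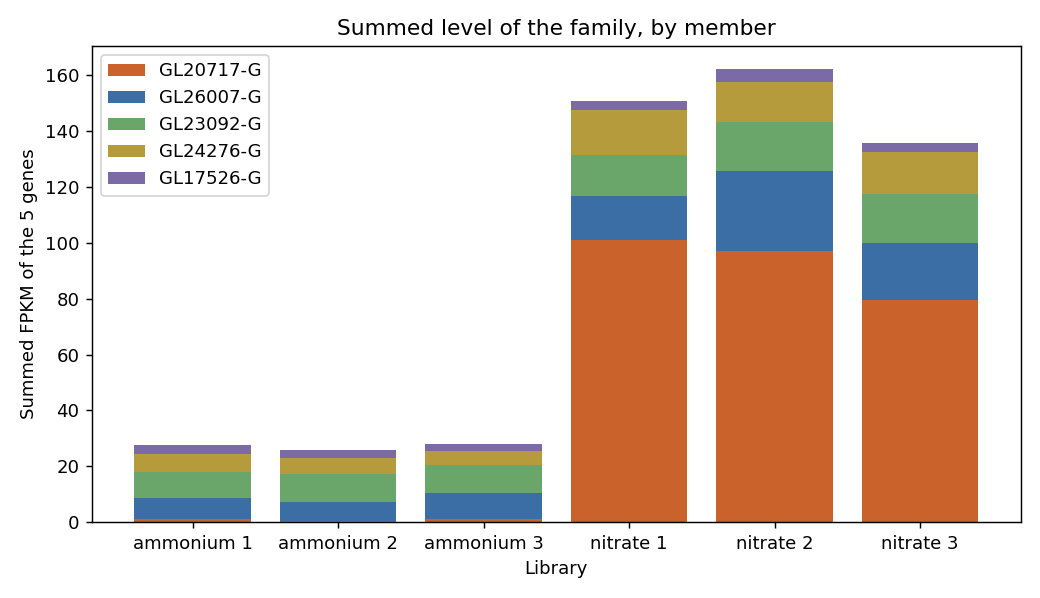
Summed FPKM of the 5 permease genes in each library, stacked by gene. The ammonium libraries total 25.8 to 28.01 FPKM with GL20717-G as a thin band at the base, and the nitrate libraries total 136 to 162 FPKM with GL20717-G as the largest band.

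The genes next to the members were taken whatever their values. The 3 nearest gene models on each side of each member gave 30 neighbours, of which 26 were tested, with a median log2 fold change of 0.17 against 0.01 over all tested genes. Of these, 5 were called higher and 1 lower, where 7.5% of all tested genes were called higher and 8.13% lower. Around GL20717-G the tested neighbours had fold changes from 0.09 to 1.45, and the 1 called was the undescribed GL20769-G at 1.77 ± 0.384 and 4.94 ± 1.70 FPKM (adjusted p = 0.0226, edgeR). Leaving out ammonium replicate 2, ammonium replicate 3 or nitrate replicate 3 ended that call (adjusted p = 0.0848 to 0.0922). None of the 6 neighbours of GL17526-G was called by edgeR, 0 had an unadjusted p under 0.05, and DESeq2 and limma called 0.

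GL29038-G, an undescribed gene with its start 3610 bases beyond the end of GL26007-G, went from 16.5 ± 2.81 to 60.3 ± 10.8 FPKM (1.85 ± 0.22, adjusted p = 0.00219, edgeR), a call that held without any 1 library. On the other side of GL26007-G, the undescribed GL26006-G was lower at 6.52 ± 0.513 and 3.39 ± 0.827 FPKM (adjusted p = 0.0318, edgeR), and leaving out any 1 of those same 3 libraries ended its call (adjusted p = 0.093 to 0.112). Near GL23092-G, the cytochrome P450 gene GL23071-G and the undescribed GL23031-G were called higher with fold changes of 0.89 ± 0.22 and 0.95 ± 0.22. Each of these was called in 1 of the 6 fits that left out a library, without nitrate replicate 2 for GL23071-G and without ammonium replicate 1 for GL23031-G.

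**Figure D3:**
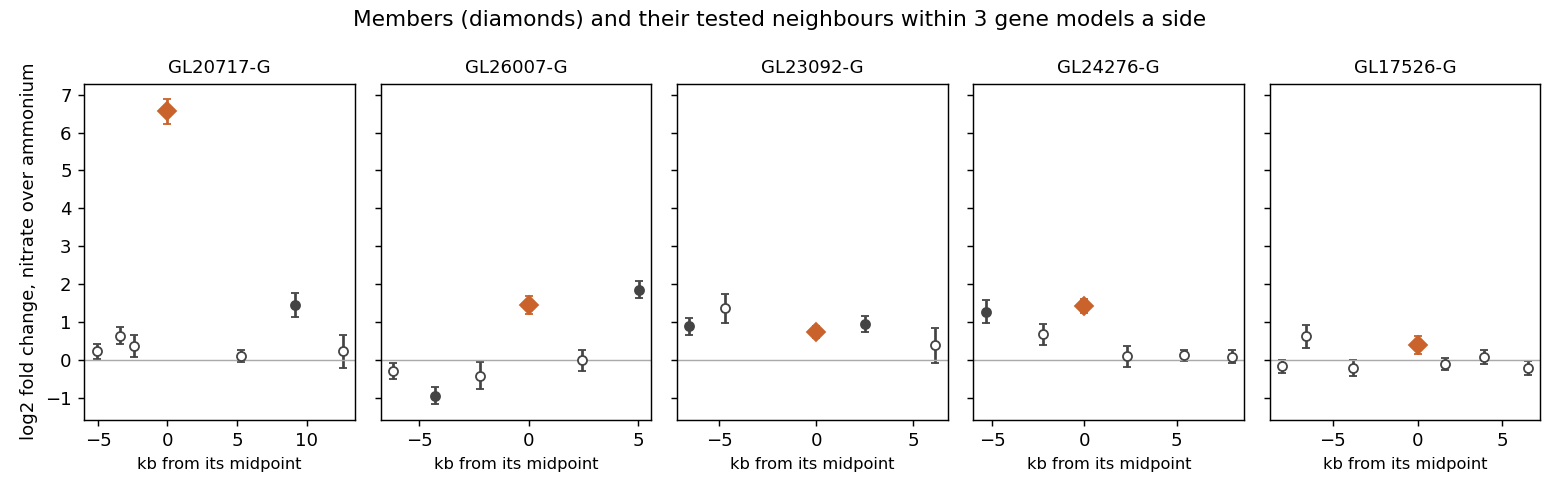
log2 fold change of nitrate over ammonium (edgeR, bars are SE) for each member, drawn as a diamond at 0 kb, and for its tested neighbours within 3 gene models on each side, by distance between midpoints. Filled circles are neighbours called at an adjusted p under 0.05. GL20717-G stands at 6.56 with its neighbours between 0.09 and 1.45.

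GL24276-G had an allantoinase-type gene on its scaffold, beyond the 3 nearest gene models on that side. This pair was picked with values in view, and no such search was made around the other members. GL24291-G is described as dihydroorotase or related, and its KEGG entry in purine metabolism and its GO identifiers are those of allantoinase, the enzyme that opens the allantoin ring. It lies on scaffold 34 at 181164 to 182891, with 14124 bases and 5 gene models between it and GL24276-G. Its level was 10.2, 10.1 and 8.76 FPKM on ammonium and 19.9, 19.3 and 18.9 FPKM on nitrate, so every nitrate library was above every ammonium library. It rose by 0.99 ± 0.16 (adjusted p = 0.00633, edgeR), and the call held without any 1 library. By Pearson correlation of log2(CPM + 1) over the 6 libraries, GL24291-G was the gene most like GL24276-G among 4117 described genes with at least 5 FPKM (r = 0.996). Of those genes 169 had r over 0.95, the points share the group difference, and the next gene, the TRAPP vesicle transport subunit GL20003-G, had r = 0.996 as well. The next 3 were the respiratory chain subunit GL16501-G, the glycerophosphodiester phosphodiesterase GL29858-G and the inositol polyphosphate phosphatase GL31401-G, each with r over 0.995.

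Among the gene models between the pair, GL24292-G, of the glucose and choline dehydrogenase family, went from 42.0 ± 10.9 to 102 ± 26.7 FPKM (1.27 ± 0.30, adjusted p = 0.0291, edgeR). Its adjusted p was 0.0544 to 0.0972 when ammonium replicate 2, ammonium replicate 3 or nitrate replicate 3 was left out. The sterol reductase gene GL24293-G, whose model ends 43 bases before that of GL24276-G, stood at 67.6 ± 25.4 and 108 ± 27.8 FPKM (adjusted p = 0.131), and it was called once ammonium replicate 1 was left out (adjusted p = 0.0288). It is the more abundant neighbour in every group, and counts in GL24276-G from transcripts running past its end were not tested. The condensin subunit GL24273-G stood at 6.11 ± 0.478 and 3.97 ± 1.17 FPKM (adjusted p = 0.0854). The undescribed GL17118-G and GL28369-G were under 1 FPKM in both groups and were not tested.

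**Figure D4:**
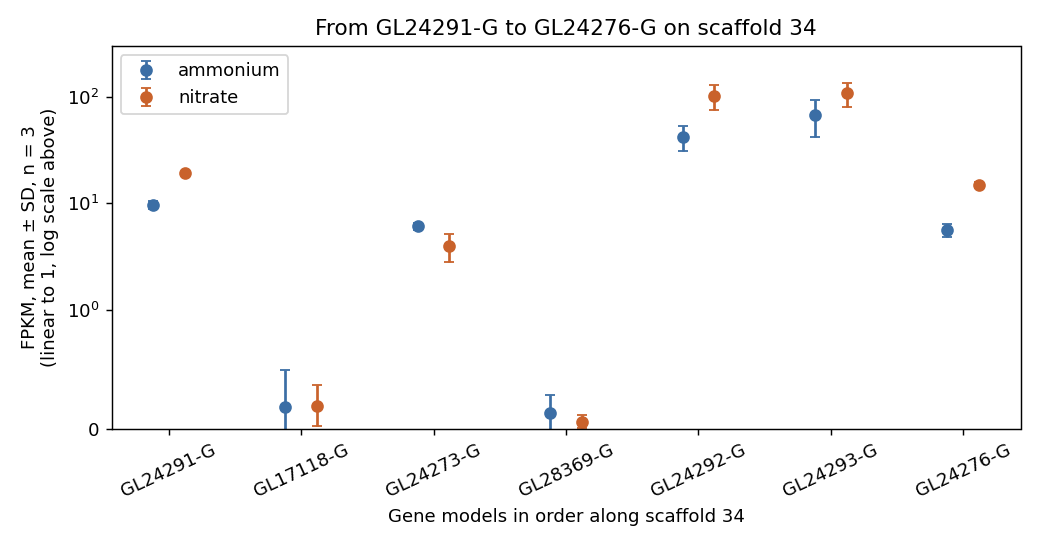
FPKM as mean ± SD of 3 libraries for the gene models from GL24291-G to GL24276-G, in order along scaffold 34, on an axis that is linear up to 1 and logarithmic above. Both end genes are higher on nitrate, at 19.3 and 15.0 FPKM against 9.68 and 5.58, and the condensin subunit GL24273-G between them has the lower mean on nitrate.

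The same measure of likeness was applied to the other members, as a description over 6 libraries that share the group difference. The gene most like GL20717-G was GL22281-G (r = 0.997), described as a sulfite oxidase type and carrying the GO identifier for nitrate reductase, the enzyme that reduces nitrate to nitrite. The next 4 were a copper amine oxidase, GL27396-G, a phosphohydrolase, GL26522-G, an actin-related protein, GL23634-G, and a succinyl-CoA synthetase subunit, GL29894-G (r = 0.994 to 0.995), and 123 genes had r over 0.95. For GL23092-G the closest were the cytochrome P450 genes GL31762-G and GL31775-G and the copper amine oxidase GL22246-G (r = 0.99 to 0.993). The uncharacterized GL16822-G and the phosphatase GL19768-G followed (r = 0.99 and 0.989), and 89 genes had r over 0.95.

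For GL26007-G the 5 closest included the uridine phosphorylase GL29934-G (r = 0.981), which splits uridine into uracil and a sugar phosphate. The others were the GTP-binding protein GL25266-G, the arylacetamide deacetylase GL22012-G, the P450 gene GL15308-G and the uncharacterized GL25212-G (r = 0.979 to 0.987). GL17526-G was most like GL28091-G, an enzyme of riboflavin synthesis (r = 0.999), then an mRNA cleavage factor subunit, GL23316-G, and a glycolate oxidase, GL30499-G (r = 0.981 and 0.96). The aldo-keto reductase GL25253-G and the sugar dehydrogenase GL18437-G followed (r = 0.937 and 0.931). Among the members themselves r ran from 0.87 to 0.976 for the 6 pairs without GL17526-G and from 0.629 to 0.815 for the 4 pairs with it.

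Other carriers of nucleobases and nucleosides moved in both directions. Besides the 5 members, 7 tested genes carried GO identifiers for such transport, a list added after values had been seen. By edgeR 3 were higher and 2 were lower, against 7.5% and 8.13% of all tested genes. These 7 had a median log2 fold change of -0.41 against 0.01 over all tested genes. The concentrative nucleoside cotransporter GL25641-G, which brings in nucleosides with a cation, had 12.2, 13.9 and 15.8 FPKM on ammonium and 88.0, 76.7 and 63.8 FPKM on nitrate. The groups were far apart, and it rose by 2.44 ± 0.22 (adjusted p = 0.000685, edgeR), a call that held without any 1 library.

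GL25121-G, the one gene outside the family with nucleobase transmembrane transporter activity, also carries cytosine and cytidine transport. It was 11.4 ± 0.411 and 18.7 ± 0.615 FPKM, a fold change of 0.70 ± 0.14 (adjusted p = 0.0175, edgeR). Its adjusted p was 0.0661 to 0.0773 when ammonium replicate 2, ammonium replicate 3 or nitrate replicate 3 was left out. Of 3 undescribed genes with purine nucleobase transport, GL20954-G was higher (0.99 ± 0.22, adjusted p = 0.0242, edgeR) and GL30050-G and GL24044-G were lower (-1.02 ± 0.23 and -0.77 ± 0.21, adjusted p = 0.0249 and 0.0449, edgeR). All 3 lost their call when replicate 2 or 3 of either salt was left out (adjusted p = 0.0747 to 0.16). The nucleoside transporter GL26722-G, at 43.0 ± 4.97 and 32.7 ± 1.79 FPKM, did not pass (adjusted p = 0.137), nor did the aquaporin GL25673-G (adjusted p = 0.439).

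By KOG description, 0 of 5 other nucleobase and nucleoside transporters was called by edgeR, with 2 at an unadjusted p under 0.05 and 0 called by DESeq2 or limma. The xanthine and uracil transporter GL31345-G stood at 10.9 ± 1.92 and 15.6 ± 1.59 FPKM (adjusted p = 0.111). GL30386-G, GL23080-G and GL24378-G are described there as equilibrative nucleoside transporters, but their GO identifiers are of endocytosis and actin patches and name no transport of nucleosides. Genes with identifiers for allantoate or thiamine transport gave no call, and allantoate is not the allantoin named in the family's description. The adjoining major facilitator genes GL18179-G and GL26800-G, with the identifier for allantoate transport, were at 2.92 ± 0.729 and 2.10 ± 0.816 FPKM and at 0.375 ± 0.0615 and 0.188 ± 0.231 FPKM. GL26767-G, an amino acid transporter by KOG with the identifier for thiamine transport, was at 60.7 ± 1.62 and 61.3 ± 6.77 FPKM (adjusted p = 0.998). In that list of 3 genes edgeR called 0, DESeq2 and limma called 0, and 0 had an unadjusted p under 0.05.

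Purine and allantoin breakdown otherwise had no called gene. Of 10 tested genes in the KOG list, edgeR called 0, with 3 at an unadjusted p under 0.05, 2 called by DESeq2 and 0 by limma. Their median log2 fold change was -0.09, and the wording of the list also took in GL18117-G, described as a tRNA-specific adenosine deaminase. Uricase, GL23350-G, which makes the precursor of allantoin from urate, was 38.6 ± 13.5 and 35.7 ± 11.2 FPKM (adjusted p = 0.813). Allantoicase, GL25254-G, which acts after allantoinase, was 20.6 ± 3.82 and 20.8 ± 3.26 FPKM (adjusted p = 0.987). Among 5 tested genes with GO identifiers of purine base or allantoin breakdown, GL24291-G was the 1 called. Both genes with the urease identifier, GL29836-G and GL25823-G, were tested and edgeR called 0 (adjusted p = 0.243 and 0.205). For urease 0 had an unadjusted p under 0.05, and DESeq2 and limma called 0.

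Pyrimidine genes had calls in both directions, with 4 higher and 3 lower of 14 tested and a median log2 fold change of -0.18. Over all tested genes 7.5% were called higher and 8.13% lower. Besides GL24291-G, which the wording of the list took in, CTP synthase, GL24040-G, which makes CTP from UTP, went from 19.3 ± 0.985 to 32.9 ± 0.99 FPKM (adjusted p = 0.0153, edgeR). Leaving out ammonium replicate 3 ended that call (adjusted p = 0.0711). Uridine phosphorylase, GL29934-G, went from 46.7 ± 5.28 to 76.6 ± 8.48 FPKM (adjusted p = 0.0227, edgeR), and leaving out replicate 2 or 3 of either salt ended the call (adjusted p = 0.0506 to 0.0967). The other calls, named after their values were seen, were the cytosine deaminase GL26770-G, higher, and the nucleoside hydrolase GL31141-G, dihydroorotate dehydrogenase GL16722-G and the UMP synthase GL24054-G, lower. Each of these was lost without at least 3 of the libraries in turn, among them ammonium replicates 2 and 3 and nitrate replicate 3 (adjusted p = 0.0525 to 0.122). Over the 6 fits without 1 library, 1 to 4 genes of the list were higher and 0 to 3 lower. By GO identifier, 1 of 8 genes of pyrimidine base synthesis was higher and 2 were lower, all named above. Of 5 for salvage to UMP, edgeR called 0, 0 had an unadjusted p under 0.05, and DESeq2 and limma called 0.

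Of 9 tested genes that make or use thiamine by KOG description, 2 were called lower by edgeR, against 8.13% of all tested genes. All 9 log2 fold changes were below 0 with the 6 libraries, with a median of -0.27 against 0.01 over all tested genes. The wording of the list also took in GL20593-G (-0.39), a predicted dinucleotide-utilizing enzyme of molybdopterin and thiamine biosynthesis. The fold changes of GL18416-G, GL23848-G and GL23873-G were near 0 and reached 0.02, 0.03 and 0.22 in fits without 1 library. Transketolase, GL26014-G, which uses thiamine diphosphate, went from 2.71 ± 0.808 to 1.25 ± 0.213 FPKM (adjusted p = 0.028, edgeR). Its call ended when ammonium replicate 3 or any 1 nitrate library was left out (adjusted p = 0.056 to 0.0996). Phosphomethylpyrimidine kinase, GL22808-G, of thiamine synthesis, went from 2.38 ± 0.233 to 1.30 ± 0.378 FPKM (adjusted p = 0.0468, edgeR), and it was called in none of the 6 fits without a library (adjusted p = 0.0718 to 0.137). DESeq2 called 2 of the 9 and limma called 0, and 4 had an unadjusted p under 0.05 by edgeR. By GO identifier 1 of 4 genes of thiamine synthesis was called lower, the same GL22808-G, and 0 were called higher, with 1 fold change above 0, that of GL25730-G at 0.20.

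**Figure D5:**
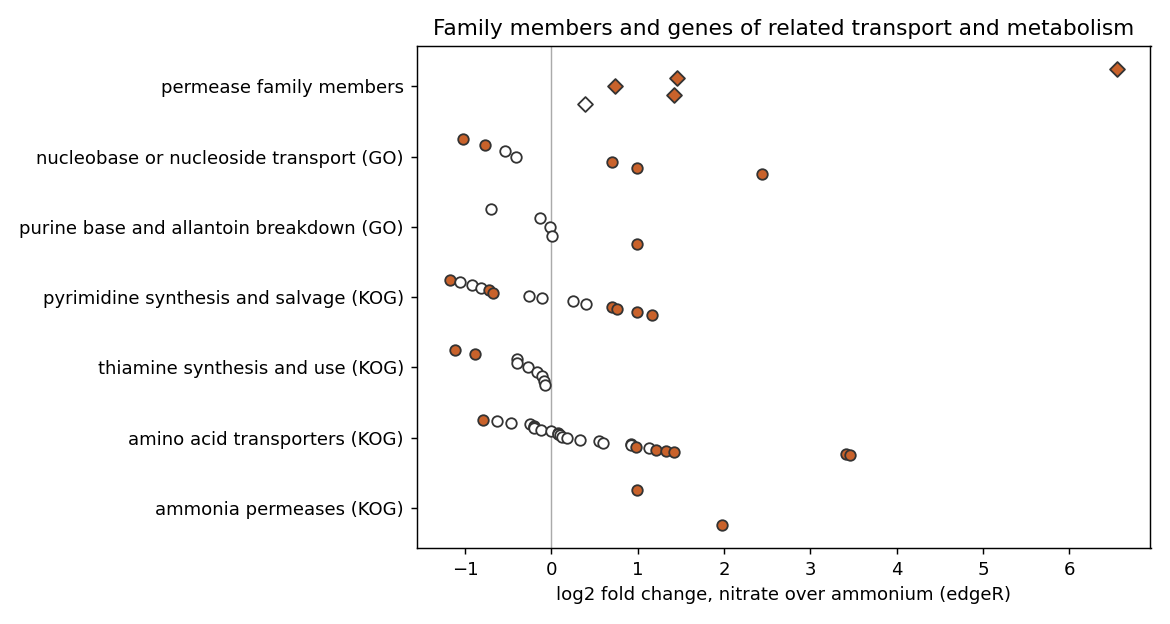
log2 fold change of nitrate over ammonium (edgeR) for the 5 permease genes, drawn as diamonds, and for tested genes of related lists, drawn as circles, filled where called at an adjusted p under 0.05. GO and KOG name the annotation a list was drawn from, and GL24291-G is in both the purine and the pyrimidine list. GL20717-G is the point at 6.56, and the 9 thiamine genes by KOG lie below 0, 3 of them near it.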

How the data were processed

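RNA was sequenced on the Illumina platform after isolation of mRNA from total RNA of mycelia, per the labels' protocols. Which aligner, counting tool, strand setting and genome build were used is not given in the sources used here. The authors deposited 1 table of 16113 genes with raw read counts, TPM and FPKM per library, per the file headers. The deposited TPM values were not used further. Deposited FPKM values give the levels, and the deposited counts give the tests.

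Samples were grouped by title. All 6 libraries were fitted in R 4.3.3 with edgeR 4.0.16, by its quasi-likelihood test, using TMM factors, filterByExpr, robust estimates and Benjamini-Hochberg adjustment over 11993 tested genes, at 0.05. The fit had 4 residual degrees of freedom and a biological coefficient of variation of 0.248. SE was derived from the F statistic. The steps were tested on simulated data.

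The members and lists were chosen with earlier results of these data known. Lists were word patterns on KOG descriptions, since the gene description column is empty, with 7 GO lists added after values were seen. A list of nicotinate and vitamin carriers matched 0 genes. Named genes were all members, the 3 nearest gene models on each side, the 5 most alike described genes per member (of at least 5 FPKM, pseudocount 1 on CPM), and at most 3 genes per list, those called with the smallest adjusted p. Genes of the GO lists, and list genes named without a call, fall outside that rule and were picked with their values in view.

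Other settings tried were DESeq2 1.42.0, edgeR with RLE size factors, edgeR with no filter or with a minimum of 50 counts in 3 libraries, limma-trend (limma 3.58.1) on log2(FPKM + 1) and log2(FPKM + 0.1) for genes of at least 1 FPKM in 3 libraries, a replicate block, and each library left out. The limma fold changes are on those pseudocount scales and understate changes of low genes. A count of 3 corresponds to 0.109 to 0.15 CPM, covering counting error only.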

Additional observations from a re-analysis of the deposited data

How the results depend on the processing

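Calls of members reuse the values with which the family was picked. Of the 5 permease genes, 4 were called higher under RLE, both other filters, DESeq2 and both limma fits. In the fits without 1 library, 3 to 4 were called higher. The log2 fold change of GL23092-G was 0.65 to 0.79 in those fits, and it lost its call in 4 of them. Genes called over the table were 1874, of which 899 were higher, and 655 to 1946 and 273 to 910 in those fits, while calls in the KOG lists were 20, and 8 to 19. Counts fell by over 1.5 times without ammonium replicate 2 (794, 328 and 11), ammonium replicate 3 (655, 273 and 8), nitrate replicate 2 (1133, 511 and 12) or nitrate replicate 3 (701, 315 and 11). Each fit without 1 library loses the same residual degrees of freedom. Without ammonium replicate 1 the genes called over the table were 1946, and without nitrate replicate 1 they were 1680. Why the counts differ with the library left out was not tested. DESeq2 called 27 genes of the KOG lists and limma 17, among them 11 amino acid transporters by DESeq2 against 7. Same-numbered libraries deviated from their group means in opposite directions (r = -0.724, -0.462 and -0.551). Differently numbered pairs ran from -0.535 (ammonium 2 with nitrate 3) to 0.732 (ammonium 1 with nitrate 3). The labels do not say that a number marks a batch, and whether libraries shared one was not tested. With the replicate block 225 genes were called, 85 higher, 3 in the KOG lists, and 2 members, GL20717-G and GL24276-G. GL23092-G (0.74) and GL26007-G (1.43) were then not called. No fold change of a member or called list gene reversed. The depth of 19979528 to 27604895 counts leaves GL20717-G with 29 to 68 counts on ammonium, which limits the precision of its ratio.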

Other observations

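Carriers of other nitrogen sources were measured in the same fit. Of 26 tested amino acid transporters, edgeR called 6 higher and 1 lower, against 7.5% and 8.13% of all tested genes. These transporters had a median log2 fold change of 0.15 against 0.01 over all tested genes, and 5 to 8 were called higher without 1 library. The largest were GL23088-G and GL23068-G, at 3.46 ± 0.28 and 3.42 ± 0.28 (SE, both adjusted p = 0.000553, edgeR), each called without any 1 library. Both are on scaffold 23 but far from GL23092-G, with starts at 671005 and 632653 against 43572. GL16126-G came next by adjusted p, at 26.8 ± 1.17 and 53.2 ± 2.87 FPKM. GL22186-G, an ammonia permease, rose by 1.98 ± 0.18 (adjusted p = 0.00074, edgeR). A second ammonia permease, GL30450-G (0.99 ± 0.26, adjusted p = 0.0385, edgeR), kept its call in 1 of the 6 fits lacking a library, the one lacking nitrate replicate 1, with an adjusted p of 0.059 to 0.128 in the rest. The urea transporter GL22272-G rose by 2.23 ± 0.36 (adjusted p = 0.00724, edgeR), and held without any 1 library. The oligopeptide symporter GL22213-G, at 436 ± 51.3 and 847 ± 205 FPKM (adjusted p = 0.0436, edgeR), kept its call in the fit lacking nitrate replicate 3 alone, with an adjusted p of 0.0677 to 0.14 in the rest. Since GL20717-G had the highest fold change of the 11993 tested genes, none of these genes could have exceeded its 6.56.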
